A study of Mus musculus with 12 samples.

Results

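The cell cycle and DNA replication genes described here are 36 genes taken from a written list of proliferation genes. A gene was kept if at least 3 of the 12 libraries held 10 or more counts of it, with counts summed over its transcripts. All 36 listed genes met this rule, out of 10880 that met it among 15986 genes with a row in the deposited files, and all 36 were among the 10802 genes that entered the test. The libraries are polyA RNA of mouse bone marrow cells selected with Ly6G beads, a surface marker of neutrophils, and labelled mature neutrophils. The 4 groups of 3 libraries are wild-type cells left unstimulated, wild-type cells with 5 µM CpG-B, Rab27a knockout cells left unstimulated and Rab27a knockout cells with 5 µM CpG-B, all held for 6 h. CpG-B is a synthetic DNA that activates Toll-like receptor 9, and Rab27a is a small GTPase of granule and vesicle docking. Both genotypes carry the strain label C57BL/6. The sources used here do not give the knockout allele or the age, sex and number of animals. In the labels the unstimulated cells are described both as untreated and as given vehicle, and the libraries of each group are numbered 1 to 3. Nothing in them says that the numbers mark separate animals. The spread behind each p-value is therefore that between libraries, which may be technical.

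A dividing cell copies its DNA and then separates the copies. The Mcm helicase opens the double strand, the clamp Pcna holds the polymerases on it, and ribonucleotide reductase and thymidylate enzymes supply the nucleotides. Cdk1 with its cyclins then drives entry into mitosis, kinetochores attach the chromosomes to the spindle, a checkpoint holds the cell until all are attached, and destruction of the cyclins lets it leave. In bone marrow, granulocyte precursors divide up to the myelocyte stage and later neutrophil stages do not. Within this lineage these genes thus mark the dividing stages, but dividing cells of other lineages use them too. Many genes of mitosis carry a CCAAT box and a cell cycle homology region (CHR) before their start, and many replication genes carry an E2F site.

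The RefSeq promoter table (build GRCm38.p6) held an entry for 30 of the 36 genes, and none for Stmn1, Aurkb, Tpx2, Mcm4, Kif20a and Ccna2. The 250 bases before the start were searched on both strands. CCAAT was found in 26 of 30 (86.7%), against 37.5% of the 27025 genes in the table. The CHR letters TTTGAA were found in 9 of 30 (30%), against 18.3%, and the variant TTCGAA in 3 of 30 (10%), against 1.55%. One of the E2F letters TTTGGCGC, TTTCCCGC or TTTCGCGC was found in 4 of 30 (13.3%, Cdk1, Mcm5, Mcm6 and Mcm7), against 1.78%. These are matches of letters, not measured binding. The 150 bases before the start are shown for the mitotic kinase gene Cdk1, the cyclin gene Ccnb2, the cyclin destruction gene Ube2c, the proliferation marker Mki67, the helicase gene Mcm6 and the motor gene Kif23, because their levels are described below and they differ in which motifs they hold. Each reads 5′ to 3′ on the gene's strand and ends at the base before the start, with matched letters in capitals, where ATTGG and TTCAAA are CCAAT and TTTGAA read on the opposite strand.
Cdk1, chr10:69352913-69353062, minus strand: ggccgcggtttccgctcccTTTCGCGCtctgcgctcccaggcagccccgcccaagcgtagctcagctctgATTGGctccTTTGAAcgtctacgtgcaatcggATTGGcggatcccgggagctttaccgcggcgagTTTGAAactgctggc
Ccnb2, chr9:70421555-70421704, minus strand: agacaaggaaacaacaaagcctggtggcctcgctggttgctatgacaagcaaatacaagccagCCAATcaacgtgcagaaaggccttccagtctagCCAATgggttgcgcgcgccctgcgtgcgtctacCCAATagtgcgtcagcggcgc
Ube2c, chr2:164769779-164769928, plus strand: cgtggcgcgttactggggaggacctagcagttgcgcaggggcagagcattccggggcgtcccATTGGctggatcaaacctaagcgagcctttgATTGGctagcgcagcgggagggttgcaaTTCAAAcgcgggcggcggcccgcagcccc
Mki67, chr7:135716380-135716529, minus strand: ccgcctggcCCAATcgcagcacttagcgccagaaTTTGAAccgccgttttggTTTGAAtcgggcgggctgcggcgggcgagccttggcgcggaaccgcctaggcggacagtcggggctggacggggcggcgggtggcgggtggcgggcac
Mcm6, chr1:128359706-128359855, minus strand: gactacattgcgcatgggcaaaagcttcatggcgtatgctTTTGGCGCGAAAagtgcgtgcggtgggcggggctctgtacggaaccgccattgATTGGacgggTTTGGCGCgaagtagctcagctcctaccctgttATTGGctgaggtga
Kif23, chr9:61946800-61946949, minus strand: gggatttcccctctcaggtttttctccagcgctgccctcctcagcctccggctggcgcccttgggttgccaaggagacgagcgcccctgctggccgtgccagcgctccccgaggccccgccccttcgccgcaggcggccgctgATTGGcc
In the 150 bases shown, Cdk1 held all 3 kinds of match, Ccnb2 held 3 CCAAT boxes, Ube2c and Mki67 held CCAAT and CHR matches, Mcm6 held E2F and CCAAT matches, of which 2 E2F matches on opposite strands overlap, and Kif23 held 1 CCAAT box beside its start.

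Libraries held 10928813 to 15513279 counts. The 36 genes together held 0.138% to 0.22% of them, and the Wilson binomial 95% interval of the highest share, 0.218% to 0.223%, covers counting error only. The targeted gene Rab27a was at 94.9 to 129 CPM (counts relative to the scaled library size) in the 6 knockout libraries and 207 to 335 CPM in the 6 wild-type libraries. All 11 mature neutrophil markers were detected, and Ly6g was at 112 to 197 CPM.

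All 36 genes were detected in cells labelled mature. On the deposited TPM scale, which corrects for length and so allows levels of different genes to be compared, their means over the 12 libraries ran from 1.8 to 67.0, with a median of 14.5 against 10.4 for all genes tested. Pcna, the replication clamp, had the highest mean TPM (67.0, range 47.1 to 87.2), followed by Mki67, which coats mitotic chromosomes (64.9, range 54.5 to 94.1), and Stmn1, which destabilises microtubules (60.8, range 42.9 to 78.8). The ranges of these 3 overlap, so their order is not beyond the spread between libraries. The thymidylate synthase gene Tyms (1.8 TPM), the thymidine kinase gene Tk1 (4.0 TPM) and Cdk1 (4.6 TPM) were lowest. These are bulk libraries, in which fewer cells of a type and less RNA per cell cannot be told apart.

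Both knockout libraries numbered 3 stood apart from the other knockout libraries in these genes. The summed level of all 36 was 1433, 1497 and 2018 CPM in the unstimulated knockout libraries numbered 1, 2 and 3, and 1535, 1515 and 2019.9 CPM in the knockout libraries with CpG. In wild-type it was 1607, 1872 and 1746 CPM unstimulated and 1566, 1737 and 1631 CPM with CpG. The order by number was thus the same in both wild-type treatments, and number 3 was the highest in both knockout treatments. Mki67 alone held 25.4% to 30.8% of the counts of the 36 genes, with 30.2% and 30.8% in knockout number 3. Without Mki67 the sum was 1409 and 1398 CPM in knockout number 3, against 1396 CPM in unstimulated wild-type 2. For the 11 replication genes it was 380 and 384 against 393 CPM. For the 23 mitotic genes it was 843 and 823 against 847 CPM. Mki67 and Top2a together were at 795 and 812 CPM in knockout number 3, against at most 652 CPM in wild-type.
Single genes followed the sum. In the unstimulated knockout, number 3 was the highest library for 34 of 36 genes, and with CpG for 32 of 36. It was the highest in both treatments for 32 genes, against 21.9% of all genes tested. In wild-type, number 2 was the highest in both treatments for 19 of 36 genes, against 17.7% of all genes tested.

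**Figure D1:**
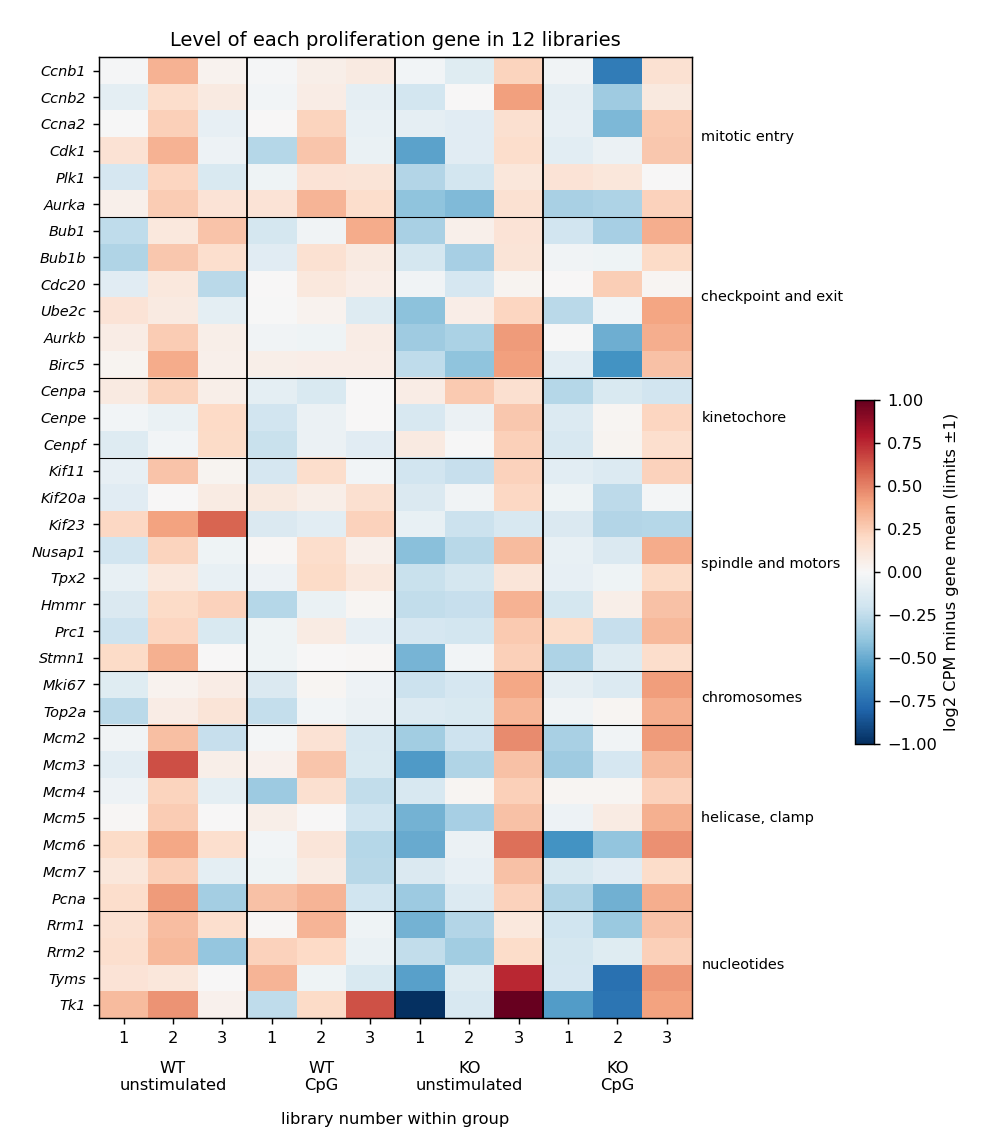
Level of each of the 36 genes (rows, grouped by role) in the 12 libraries (columns, by group and library number), as log2 CPM minus the mean of the gene over the libraries. Both knockout columns numbered 3 are red in most rows, and the Kif23 row is red mainly in the unstimulated wild-type columns.

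The excess of knockout number 3 over knockout numbers 1 and 2 varied by role. Knockout numbers 1 and 2 were themselves below every wild-type library in the sum of all 36 genes (1433 to 1535 against 1566 to 1872 CPM). So they were in the sums of the 11 replication genes (243 to 272 against 277 to 393 CPM) and of the 23 mitotic genes (656 to 687 against 694 to 847 CPM). On the TPM scale these sums overlapped. All 36 genes were at 677 TPM in unstimulated knockout 2 and at 653 TPM in wild-type with CpG 3. Taking number 3 over the mean of numbers 1 and 2, the median of the 36 genes was 1.38 unstimulated and 1.30 with CpG, against 0.969 and 0.978 for all genes tested. It was largest for Tk1 (3.24 and 2.07), followed unstimulated by Tyms (2.11 and 1.82), and these are the genes with the fewest counts. The 7 helicase and clamp genes had medians of 1.62 and 1.49, led by Mcm6 (1.76 and 1.93). Ribonucleotide reductase was similar in both subunits, with ratios of 1.40 and 1.48 for Rrm1 and 1.39 and 1.31 for Rrm2.
As sums, the 23 mitotic genes had ratios of 1.26 and 1.21, below the 1.48 and 1.43 of the 11 replication genes, but the mitotic roles differed among themselves. The 6 checkpoint and exit genes had medians of 1.30 and 1.48, the latter close to that of the helicase and clamp genes, and the 6 genes of mitotic entry 1.34 and 1.33. The 3 kinetochore genes had medians of 1.15 and 1.17, and the 8 spindle and motor genes 1.36 and 1.27. The centromere histone gene Cenpa (0.993 and 1.02) and the cytokinesis motor gene Kif23 (0.987 and 0.953) had ratios near 1. With CpG, Plk1, a mitotic kinase gene (0.917), and Cdc20, which activates cyclin destruction (0.925), were below 1.
The balance of replication to mitosis differed by number and hardly by treatment. The summed CPM of the 11 replication genes over that of the 23 mitotic genes was 0.459, 0.464 and 0.363 in unstimulated wild-type libraries numbered 1, 2 and 3, and 0.468, 0.463 and 0.363 with CpG. In the knockout it was 0.371, 0.400 and 0.451 unstimulated, and 0.389, 0.406 and 0.467 with CpG. Within each number the 2 treatments differed by at most 0.0183, while the 3 numbers of a group spanned 0.0775 to 0.106. Number 3 had the lowest ratio of its group in wild-type and the highest in the knockout, in both treatments.

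**Figure D2:**
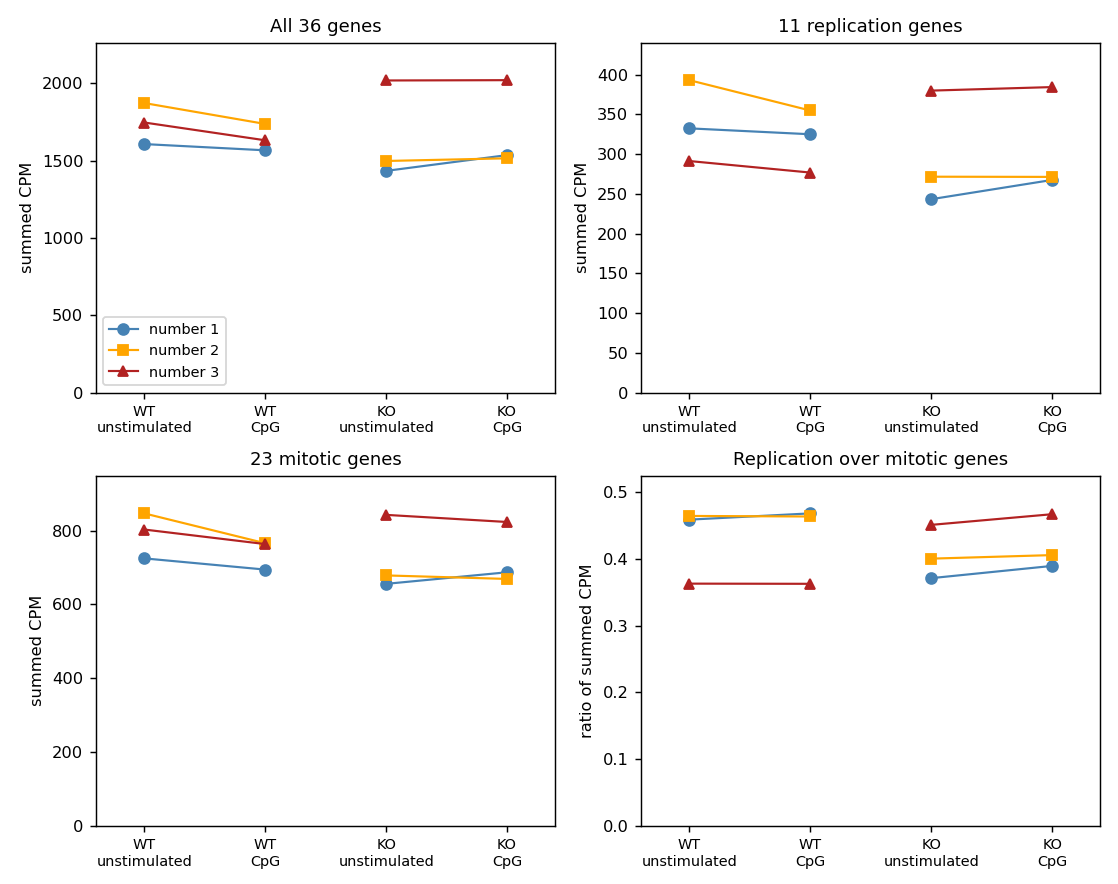
Summed CPM of all 36 genes, of the 11 replication genes and of the 23 mitotic genes, and the ratio of the last 2 sums, in each library. Lines join libraries with the same number in 1 genotype, and the lines of the ratio stay nearly flat, at 0.363 for wild-type number 3 in both treatments.

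Markers of other cells moved by number in the knockout as well, over a wider range. The 13 erythroid markers in the files summed to 522, 1982 and 6394 CPM in unstimulated knockout libraries 1, 2 and 3 and to 589, 1807 and 6423 CPM with CpG, against 4169 to 5467 CPM in wild-type. All 13 were detected, with Klf1 and Epor at 0 counts in at least 1 library. Hbb-bt, 1 of the 13, did not reach wild-type levels in any knockout library. It was at 0.61 to 6.96 CPM in the knockout and 308 to 453 CPM in wild-type, so the sums of the 2 genotypes also differ by this gene. Hba-a1 was at 171, 719 and 2301 CPM in unstimulated knockout libraries 1, 2 and 3 and at 1196 to 1512 CPM in wild-type. The 12 B lineage markers summed to 8.7, 37.8 and 122 CPM and to 10.3, 42.2 and 129 CPM in the knockout, against 33.3 to 52.8 CPM in wild-type, with 10 detected and Vpreb1 and Igll1 at 0 in at least 1 library. Both lists were thus lowest in knockout number 1 and highest in number 3.
Markers of early granulocyte stages gave the same order within the knockout. Mpo, which encodes myeloperoxidase of primary granules, was at 17.4, 68.9 and 223 CPM unstimulated and 18.3, 60.9 and 154 CPM with CpG, against 61.6 to 123 CPM in wild-type. Elane, a primary granule protease gene, was at 4.35, 18.5 and 50.8 CPM unstimulated and 4.36, 12.6 and 44.2 CPM with CpG. In wild-type it was at 20.1 to 26.8 CPM. Prtn3 and Ctsg, of the same kind, also rose from number 1 to 3 in both knockout treatments. The 10 markers listed for this stage also include genes of other kinds, such as Srgn and Cebpe. The sum of all 10 ran from 817 to 1077 CPM and from 849 to 1126 CPM in the knockout. In wild-type it ran from 732 to 887 CPM, and all 10 were detected. In every library most of that sum came from listed genes other than Mpo, Elane, Prtn3 and Ctsg. The 8 stem and progenitor markers were at 88.0 and 79.4 CPM in knockout number 3 and at 36.2 to 63.1 CPM in the other 10 libraries, with 7 of 8 detected and none at 0 in a library. The 9 eosinophil, basophil and mast cell markers were at 57.0 and 65.9 CPM in knockout number 3, at 13.7 to 25.0 CPM in the other knockout libraries and at 30.1 to 56.8 CPM in wild-type, with 8 of 9 detected and Fcer1a at 0 in at least 1 library.
Mature neutrophil markers (43025 to 76994 CPM) and secondary granule markers (33398 to 47865 CPM) did not have their highest level in knockout number 3. The part of these cell types in the levels of the 36 genes was not tested.

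**Figure D3:**
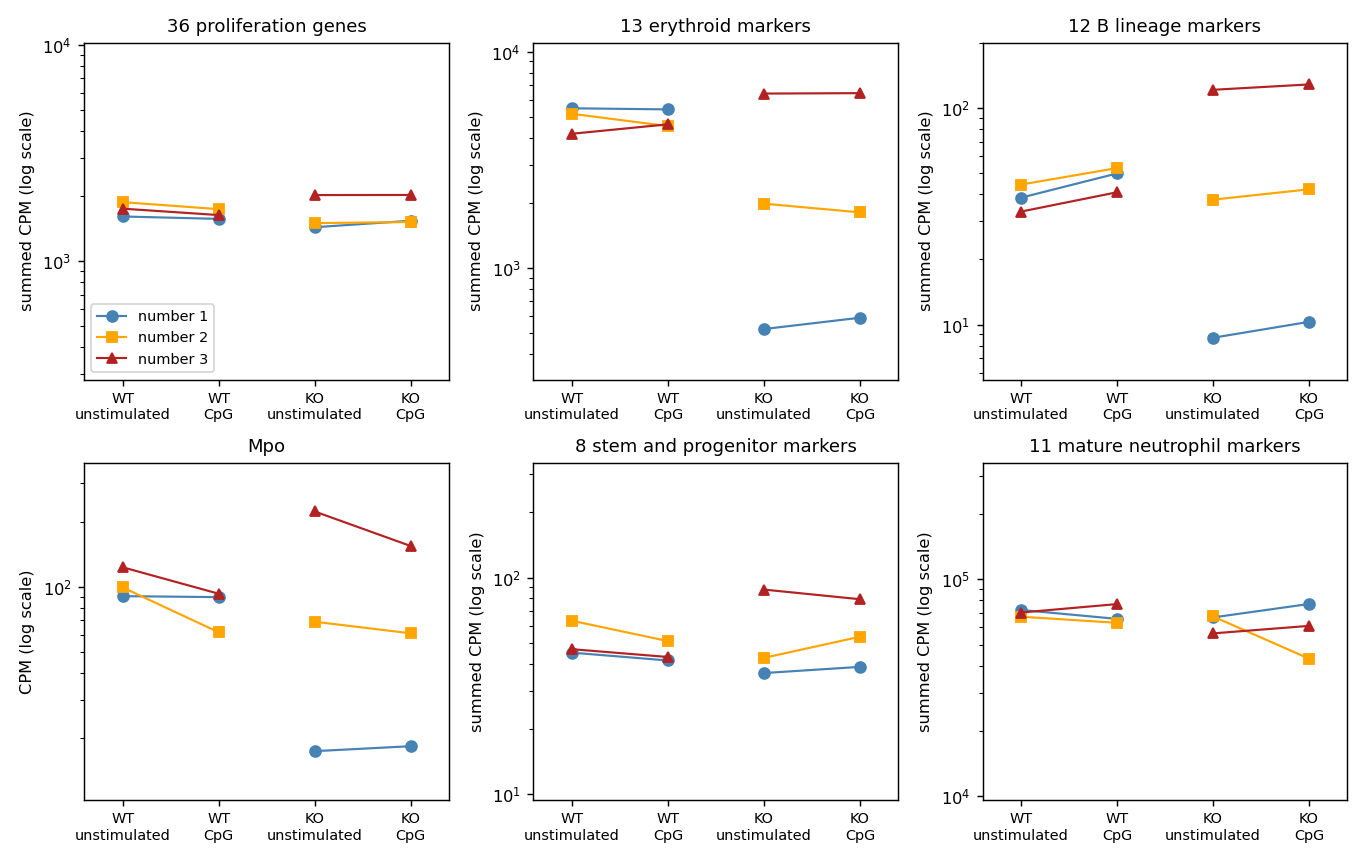
Summed CPM of the 36 genes and of 4 marker lists, and CPM of Mpo, in each library on log axes of equal span. Knockout number 3 is the highest for the 36 genes, erythroid, B lineage and stem and progenitor markers and Mpo, and not for mature neutrophil markers.

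In wild-type cells the fitted differences with CpG were small. The summed level of the 36 genes was 1741 ± 133 CPM (SD, n = 3) unstimulated and 1645 ± 86.1 CPM (SD, n = 3) with CpG, and the libraries of both groups overlapped. Within numbers the sum with CpG was lower in all 3 pairs, at 0.975, 0.928 and 0.934 times the unstimulated one. So were the sums of the 11 replication genes (from 0.903 to 0.978) and of the 23 mitotic genes (from 0.905 to 0.958). None of the 36 genes passed edgeR's test at an adjusted p of 0.05 or less, where 6.04% of all genes tested did, 4.74% as higher and 1.3% as lower. At an unadjusted p under 0.05 there was 1 gene (16.3% of all genes tested), Kif23, which was also the 1 gene that DESeq2 called (7.88% of all genes tested). The median log2 fold change was -0.08, against -0.01 for all genes tested, and 11 of 36 estimates were above 0 (48.8% of all genes tested). Leaving out 1 wild-type library changed the size of this median, from -0.16 without unstimulated wild-type 1 (7 above 0) to -0.01 without unstimulated wild-type 2 (18 above 0). It was -0.14 without unstimulated wild-type 3 or wild-type with CpG 2 and -0.04 without wild-type with CpG 1.
Kif23 encodes a motor of the spindle midzone that is needed to split the cell. It was at 97.7, 112 and 126 CPM unstimulated and at 76.4, 78.5 and 99.3 CPM with CpG. The groups overlapped by 1 library, but the level was lower with CpG within each number, at 0.782, 0.702 and 0.787 of the unstimulated level. The log2 fold change was -0.40 (SE 0.12, 95% interval -0.67 to -0.13, adjusted p = 0.0829). It passed without wild-type with CpG 3 (adjusted p = 0.0216), with library size alone (0.0398) and with DESeq2 (0.0304).
Same-numbered wild-type libraries deviated together, so a fit with the number as a block within genotype was also read, and there 2 of the 36 genes were lower, where 16.9% of all genes tested were called, 7.16% as lower and 9.73% as higher. In that paired fit Kif23 passed (adjusted p = 0.00234), and so did the helicase gene Mcm6 (log2 -0.31, adjusted p = 0.0455), which was at 26.4, 30.3 and 25.9 CPM unstimulated and 22.7, 25.1 and 18.9 CPM with CpG. Mcm6 and Cenpa were the 2 genes whose wild-type libraries with CpG all lay below the unstimulated ones, where 11.2% of all genes tested did. No gene was without overlap in the higher direction (14.5%). Within numbers, 11 of 36 genes were lower with CpG in all 3 pairs (27.6% of all genes tested) and 4 were higher in all 3 (25.1%).
The intervals were narrow. For 35 of 36 genes the 95% interval lay within a 2-fold change either way, against 74.1% of all genes tested, and Tk1 was the exception. For 27 of 36 it lay within 1.5-fold, a share that was not computed over all genes tested.

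In knockout cells, Cenpa was the 1 gene of 36 that fell with CpG, where 11.6% of all genes tested were called, 4.06% as lower and 7.57% as higher. Cenpa encodes the histone variant that marks centromeres. It was at 28.6, 32.6 and 30.4 CPM unstimulated and at 22.3, 24.5 and 23.8 CPM with CpG, so the groups did not overlap (11.5% of all genes tested were lower without overlap). The fall was by 0.37 on the log2 scale (SE 0.10, 95% interval -0.59 to -0.15, adjusted p = 0.0293). In wild-type, Cenpa was at 28.9, 31.7 and 28.2 CPM unstimulated and at 25.4, 24.4 and 27.2 CPM with CpG, with a log2 fold change of -0.21 (SE 0.10, adjusted p = 0.342). The difference between the genotypes in this response did not pass (log2 -0.17, SE 0.14, adjusted p = 1).
The Cenpa call did not hold without unstimulated knockout 2 (adjusted p = 0.137), without knockout with CpG 1 (0.0817), without both knockout libraries numbered 3 (0.0900, log2 -0.40), with no filter on low counts (0.0849) or with only the libraries compared (0.0674). Without unstimulated knockout 3, Mcm5 also passed, as higher (adjusted p = 0.0483), at 25.6, 28.2 and 43.5 CPM unstimulated and 34.3, 37.7 and 45.4 CPM with CpG.
The other 35 genes had estimates on both sides of 0. The sum was 1649 ± 321 CPM (SD, n = 3) unstimulated and 1689.9 ± 286 CPM (SD, n = 3) with CpG, and within numbers the sum with CpG was 1.07, 1.01 and 1.00 times the unstimulated one. The median log2 fold change was 0.04, against -0.01 for all genes tested, and 22 of 36 estimates were above 0 (48.8% of all genes tested). Its sign changed with single libraries. Without knockout with CpG 3 the median was -0.13 with 6 estimates above 0, and without unstimulated knockout 3 it was 0.19 with 30 above 0. It was -0.07 without unstimulated knockout 1, -0.02 without unstimulated knockout 2, and 0.09 and 0.12 without knockout with CpG 1 and 2. With library size alone it was -0.04 with 15 above 0, against -0.09 for all genes tested. With the number as a block within genotype it was 0.05 with 21 above 0, against -0.01 for all genes tested. In that fit Cenpa was again the 1 gene called. Within numbers, which the main fit did not take as pairs, 5 genes were lower with CpG at all 3 numbers (24.5% of all genes tested). At all 3 numbers 10 genes were higher (23.8%). At an unadjusted p under 0.05 there was 1 gene (22.6% of all genes tested), and DESeq2 called 1 (13.6%), in both cases Cenpa. Mki67 was at 399.8, 414 and 609 CPM unstimulated and 436, 424 and 622 CPM with CpG (log2 0.06, 95% interval -0.32 to 0.44). The 95% interval lay within 2-fold for 35 of 36 genes (70.4% of all genes tested), Tk1 again excepted.

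Without stimulation, Kif23 was the 1 gene of 36 that differed between genotypes, and it was lower in the knockout, where 4.75% of all genes tested were called, 2.64% as lower and 2.11% as higher. It was at 97.7, 112 and 126 CPM in wild-type and at 80.2, 72.7 and 75.5 CPM in the knockout. All 3 knockout libraries lay below all 3 wild-type libraries. The level fell by 0.56 on the log2 scale (SE 0.12, 95% interval -0.82 to -0.29, adjusted p = 0.0194), that is, it was 32.0% lower. The call did not hold without unstimulated wild-type 2 (adjusted p = 0.0573) or 3 (0.0946), or without unstimulated knockout 2 (0.103) or 3 (0.0699).
The ribonucleotide reductase gene Rrm1 was the other gene without overlap, at 42.4, 47.1 and 42.9 CPM in wild-type and 27.5, 31.1 and 41.0 CPM in the knockout, where 13% of all genes tested were lower without overlap. Its log2 fold change of -0.41 (SE 0.18, adjusted p = 0.258) did not pass. At an unadjusted p under 0.05 there were 2 genes of 36 (17.6% of all genes tested), and DESeq2 called 1 (7.24%).
The median of this comparison moved with single libraries, in both directions. With all libraries the median log2 fold change of the 36 genes was -0.10, against -0.01 for all genes tested, and 10 estimates were above 0 (48.3% of all genes tested). Without both knockout libraries numbered 3 it was -0.30, against -0.02, with 2 estimates above 0, and 3 of 36 genes passed as lower, where 5.84% of all genes tested were called, 3.08% as lower and 2.76% as higher. These were Kif23, the mitotic kinase gene Aurka (log2 -0.56, adjusted p = 0.0462) and Rrm1 (adjusted p = 0.0375). Aurka was at 13.6, 15.6 and 14.4 CPM in wild-type and at 9.9, 9.7 and 14.6 CPM in the knockout, so its number 3 lay within the wild-type range. Leaving out unstimulated knockout 3 alone gave a median of -0.27 with 3 estimates above 0. Without unstimulated knockout 1 the median was 0.00 with 18 above 0, and without unstimulated knockout 2 it was -0.03 with 12 above 0. Without unstimulated wild-type 2 it was 0.03 with 20 above 0, against 0.03 for all genes tested. The direction over the 36 genes thus depended on which library was left out.

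**Figure D4:**
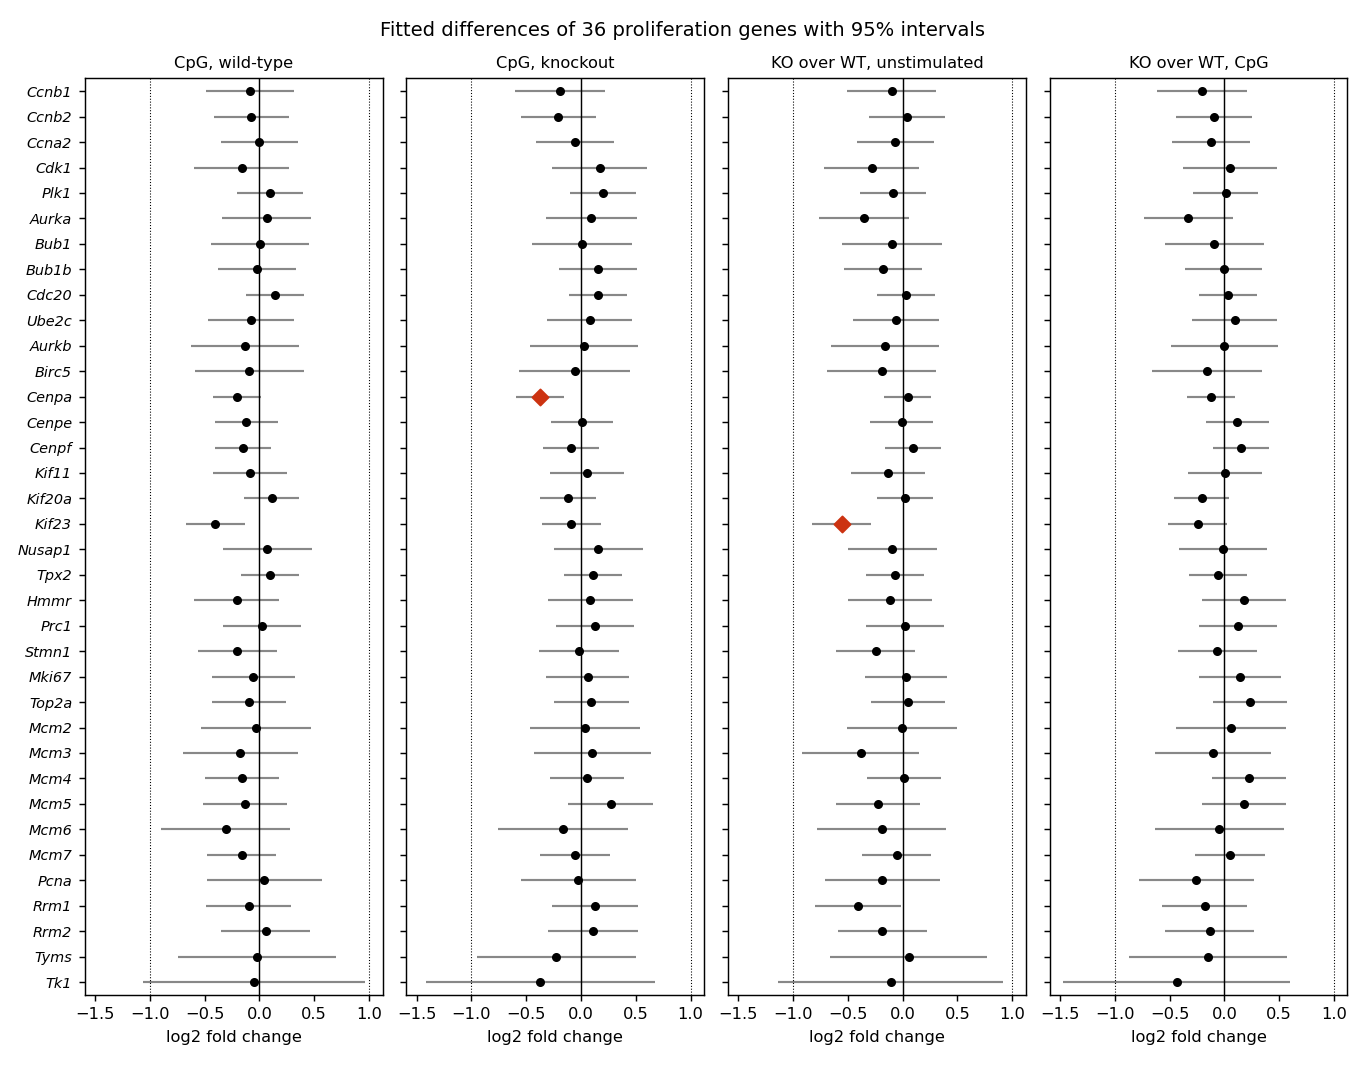
Fitted log2 fold change (points) and 95% interval (lines) of each of the 36 genes in the 4 comparisons, with dotted lines at a 2-fold change and red diamonds for genes at an adjusted p of 0.05 or less. The 2 diamonds are Cenpa with CpG in the knockout (-0.37) and Kif23 between unstimulated genotypes (-0.56).

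With CpG, none of the 36 genes differed between genotypes by edgeR's test, where 3.92% of all genes tested were called, 2.21% as lower and 1.7% as higher. The number at an unadjusted p under 0.05 was 0 (18.1% of all genes tested), and DESeq2 called 0 (6.8%). The sums were 1645 ± 86.1 CPM (SD, n = 3) in wild-type and 1689.9 ± 286 CPM (SD, n = 3) in the knockout. The median log2 fold change was -0.03, against -0.00 for all genes tested, and it was -0.16 without both knockout libraries numbered 3. It was above 0 without knockout with CpG 1 (0.03), knockout with CpG 2 (0.07) or wild-type with CpG 2 (0.06), and lower without knockout with CpG 3 (-0.16) or wild-type with CpG 1 (-0.08). Of the 36 estimates 15 were above 0 (49.9% of all genes tested). Kif23 had the lowest adjusted p (0.327), at 76.4, 78.5 and 99.3 CPM in wild-type and 76.5, 69.0 and 69.3 CPM in the knockout, which overlap (log2 -0.24, 95% interval -0.51 to 0.02). Kif20a, another motor of cytokinesis, was the 1 gene without overlap, at 28.6, 27.8 and 29.9 CPM in wild-type and 26.0, 22.3 and 26.4 CPM in the knockout (log2 -0.21, SE 0.12, adjusted p = 0.384), where 10% of all genes tested were lower without overlap.
None of the 36 genes passed the test of a different response to CpG in the 2 genotypes. The interaction test called 0 of them and 0 of all genes tested (0%) by edgeR, 0 at an unadjusted p under 0.05 (3.38% of all genes tested) and 0 by DESeq2 (0.0278%). Of its estimates 28 of 36 were above 0 (51.9% of all genes tested), with a median of 0.10 on the log2 scale. This lean rested on single libraries. The number above 0 was 14 without knockout with CpG 3 (median -0.06), 18 without unstimulated wild-type 2 (-0.00) and 19 without unstimulated knockout 1 (0.01), and it was 32 without unstimulated knockout 3 (0.26). Intervals of the interaction were wider, and 8 of 36 lay within 1.5-fold. Within 2-fold lay 33, Mcm3, Tyms and Tk1 excepted, against 65.7% of all genes tested. For Kif23 the interaction was 0.31 on the log2 scale (95% interval -0.07 to 0.69). Its response within knockout numbers was 0.954, 0.948 and 0.918 of the unstimulated level, against 0.702 to 0.787 in wild-type.

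**Figure D5:**
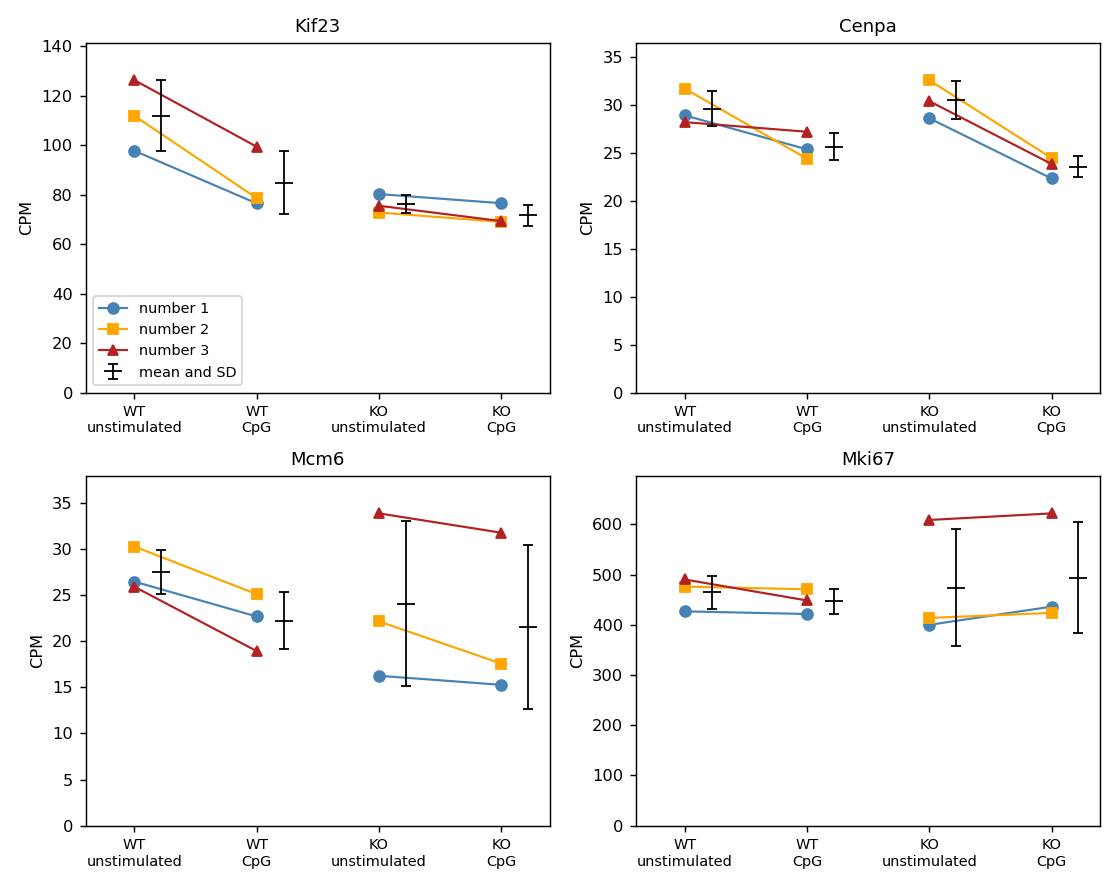
CPM of Kif23, Cenpa, Mcm6 and Mki67 in each library, with the mean and SD of each group in black and lines joining the same number in 1 genotype. Kif23 is highest in unstimulated wild-type (97.7 to 126 CPM), Cenpa is at 28.2 to 32.6 CPM unstimulated and 22.3 to 27.2 CPM with CpG, and Mcm6 and Mki67 have their highest levels in knockout number 3.

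Kif23 counts were split among 6 transcripts, 1 curated and 5 predicted, and 61.7% of its counts were assigned to predicted ones. The curated transcript was at 32.0, 39.9 and 47.2 CPM in unstimulated wild-type and 30.3, 34.7 and 25.9 CPM in the unstimulated knockout, which overlap. The predicted transcript with the largest share was at 49.6, 51.9 and 58.0 CPM and at 44.5, 27.6 and 44.4 CPM, without overlap. Assignment among overlapping transcripts is an estimate, and the gene sum does not depend on it. Kif23 and Ccnb2 lie on chromosome 9, as does Rab27a, with 107 and 23 protein-coding genes between them and Rab27a. Of the 72 and 17 of these that were tested, 2 and 1 were called between unstimulated genotypes (4.75% of all genes tested). Ccnb2 was at 21.5, 26.0 and 24.5 CPM in unstimulated wild-type and 20.3, 23.1 and 30.7 CPM in the knockout (log2 0.04, 95% interval -0.30 to 0.39). Whether the position bears on the level of Kif23 was not tested.
Over the 36 genes 21.6% of counts were on predicted transcripts. For 8 genes the annotation has an overlapping neighbour, and the sources used here do not say whether counting used strand, so reads of Ccna2 and Exosc9, Aurka and Cstf1, Cdc20 and Elovl1, Kif20a and Brd8 or Cdc23, Nusap1 and Oip5, Prc1 and Rccd1, Mcm7 and Ap4m1, and Tk1 and Afmid may be shared.

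By role, the fitted differences with all 12 libraries were small. For the 6 genes of mitotic entry (Ccnb1, Ccnb2 and Ccna2 for cyclins, Cdk1, Plk1 and Aurka for kinases) the median log2 fold change was -0.04 with CpG in wild-type, 0.02 with CpG in the knockout, -0.09 between unstimulated genotypes and -0.11 between genotypes with CpG. For the 6 genes of the checkpoint and exit from mitosis (Bub1 and Bub1b for checkpoint kinases, Cdc20 and Ube2c for cyclin destruction, Aurkb and Birc5 for the chromosomal passenger complex) the medians were -0.05, 0.05, -0.13 and -0.00. For the 3 kinetochore and centromere genes (Cenpa, Cenpe and Cenpf) they were -0.15, -0.09, 0.04 and 0.12. In these 3 roles the medians thus lay between -0.15 and 0.12.
For the 8 spindle and motor genes (Kif11, Kif20a, Kif23, Nusap1, Tpx2, Hmmr, Prc1 and Stmn1) the medians in the same order were -0.03, 0.07, -0.11 and -0.03. For Mki67 and the DNA untangling enzyme gene Top2a they were -0.07, 0.08, 0.04 and 0.19. For the 7 helicase and clamp genes they were -0.16, 0.03, -0.19 and 0.05, and for the 4 nucleotide supply genes -0.04, -0.06, -0.15 and -0.16. The comparisons of CpG share their unstimulated libraries with the comparison of unstimulated genotypes, so these medians are not independent of each other.
Levels of the 36 genes varied together over the 12 libraries, as a description of libraries that share numbers and groups. Of the 630 pairs of genes 589 had a Pearson correlation of log2 CPM above 0, with a median of 0.59. The same was not computed over all genes tested, so these values do not set the 36 genes apart. Kif11, a motor that separates the spindle poles (0.947), Nusap1, a microtubule binding gene (0.935), and Mcm3 (0.918) were closest to the mean profile, and Cenpa (0.13), Cdc20 (0.132) and Kif23 (0.187) were least like it. Each of the 36 genes is itself part of that profile, which raises its correlation. Among genes outside the list the closest were Ssrp1 (0.975), Trim37 (0.956), Ckap2 (0.925), Rack1 (0.924), Cyp11a1 (0.922), Fcnb (0.919), Mcpt8 (0.916), Diaph3 (0.915), Ccdc107 (0.915) and Lmnb2 (0.909).

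Lists of other cell cycle genes also held calls, to be read against the shares of all genes tested. With CpG these shares were 4.74% higher and 1.3% lower in wild-type and 7.57% higher and 4.06% lower in the knockout. Between genotypes they were 2.11% higher and 2.64% lower unstimulated and 1.7% higher and 2.21% lower with CpG. Of 44 other replication genes, 1 fell with CpG in wild-type (2.27%), 1 rose with CpG in the knockout (2.27%), and 1 was lower in the knockout both without and with CpG (2.27% each). Of 57 other mitotic genes, 1 rose with CpG in each genotype and 1 was lower in the knockout in each treatment (1.75% each). Of 19 tested regulators of the G1/S step, 1 rose and 1 fell with CpG in wild-type (5.26% each), 3 rose with CpG in the knockout (15.8%), and 1 was lower in the unstimulated knockout (5.26%). Of 23 tested CDK inhibitor and quiescence genes, 2 rose with CpG in wild-type (8.70%), 4 rose with CpG in the knockout (17.4%) and 1 was higher in the unstimulated knockout (4.35%). In lists this short 1 gene moves the share by several points, and no list was tested against the other genes. List medians lay between -0.15 and 0.16 on the log2 scale in these 4 comparisons, against -0.01 to -0.00 for all genes tested.
The mitotic gene that rose was Pttg1, securin, which restrains the separation of sister chromatids until cyclin destruction begins. It was at 12.2, 9.03 and 12.1 CPM unstimulated and 18.2, 18.2 and 26.7 CPM with CpG in wild-type (log2 0.92, SE 0.19), and at 12.4, 11.2 and 10.8 CPM and 21.8, 23.5 and 31.4 CPM in the knockout (log2 1.16, SE 0.19). The groups did not overlap in either genotype. The wild-type call was lost without unstimulated wild-type 2 (adjusted p = 0.0665) or wild-type with CpG 3 (0.0518).
The mitotic gene lower in the knockout was Hjurp, which loads the Cenpa protein onto centromeres. It was at 211, 302 and 509 CPM in unstimulated wild-type and 45.3, 47.1 and 55.0 CPM in the unstimulated knockout (log2 -2.79, SE 0.30). With CpG it was at 177, 207 and 349 CPM in wild-type and 44.8, 47.1 and 47.5 CPM in the knockout (log2 -2.39, SE 0.30). All knockout libraries lay below all wild-type libraries. For Cenpa itself the difference between unstimulated genotypes was 0.04 on the log2 scale (95% interval -0.17 to 0.26).
Of the 21 calls in these lists, 7 held under every alternative run. Besides Hjurp in both treatments and Pttg1 in the knockout, these were the transcription factor genes E2f3 with CpG in wild-type (log2 -0.61), E2f1 with CpG in the knockout (log2 0.91) and Mxd1, a Myc antagonist, with CpG in the knockout (log2 0.79), and Ccng1 with CpG in the knockout (log2 0.42). The other 14 were each lost under at least 1 alternative, with adjusted p up to 0.268. Among them was Myc, a driver of growth and division, which was at 0.19 to 1.84 CPM in the 6 unstimulated libraries and 2.36 to 13.5 CPM in the 6 with CpG (log2 2.63 in wild-type and 2.50 in the knockout). Its call was lost without wild-type with CpG 2 or any 1 unstimulated wild-type library (adjusted p from 0.061 to 0.0904), and in the knockout without knockout with CpG 3 (0.074).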

How the data were processed

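PolyA RNA of 12 libraries was sequenced at BGI on an Illumina instrument, per the labels' protocols. The authors deposited expected counts per RefSeq transcript, unscaled, with TPM and FPKM beside them, per the file headers. TPM was scaled by the authors for length and depth and is used here only to compare levels between genes. FPKM was not used. Tools were Bowtie2 and RSEM 1.2.28 on GRCm39, per the submitters' processing notes, with roles not given.

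Expected counts were summed per gene and rounded. Of 15986 genes 15883 matched a symbol in RefSeq. filterByExpr kept 10802 genes, and edgeR 4.0.16 (R 4.3.3) fitted a quasi-likelihood model with TMM scaling and 1 mean per group to all 12 libraries, with p-values adjusted by Benjamini-Hochberg over all genes tested. A gene was called at an adjusted p of 0.05 or less. CPM relate a count to the TMM-scaled library size. The fit was tested on simulated data. The precision comes from 10928813 to 15513279 counts per library and 3 libraries per group.

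The members and lists were chosen with earlier results of these data known. Any member could be named. Of each other pathway list, called genes with the largest changes were named. Alternatives were other scalings, DESeq2 1.42.0, other filters, blocks, only the libraries compared, leaving out each library and, chosen after seeing the data, leaving out both knockout libraries numbered 3. Residuals of same-numbered libraries correlated at 0.28, 0.41 and 0.44 in wild-type, all above 0.1. A fit with the numbers as pairs was therefore read there beside the main fit, which has no pairs. In the knockout the residuals correlated at 0.62, 0.09 and 0.68. Because of the value under 0.1 the numbers were not taken as pairs there, although the other values were above those of wild-type. The main fit thus counts differences between knockout numbers as spread. The result of the fit with pairs is given for the knockout beside the other alternatives. Promoter sequences are RefSeq's on GRCm38.p6, and no coordinates were converted.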

Additional observations from a re-analysis of the deposited data

How the results depend on the processing

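Of the 36 genes, the number called with CpG in wild-type was 0, and it was 1 with DESeq2 and with library size alone (Kif23) and 2 with number within genotype as a replicate block. With CpG in the knockout it was 1, and 0 with no filter, with only the libraries compared and without both knockout libraries numbered 3. Between unstimulated genotypes it was 1, and 3 without both knockout libraries numbered 3. Leaving out 1 library gave 0 to 1, 0 to 2 and 0 to 1 in these comparisons. Between genotypes with CpG and for the interaction it was 0 in all settings run. Replicate number as a block over all groups changed no count. Over the settings, 34, 34, 33, 36 and 36 genes were called in none. Leaving out 1 library changed the sign of the median log2 fold change of the 36 genes in every comparison but CpG in wild-type, where its size changed. With 3 libraries per group and low counts, Tk1 and Tyms had the widest intervals.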
